A study of Mus musculus with 12 samples.

Results

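Lclat1, Pgs1, Ptpmt1 and Crls1 encode enzymes of cardiolipin synthesis and remodelling, and the sites of the transcription factors Meis1 and Hoxb13 at these 4 genes were described in ventricles of CD-1 mice at postnatal day 15. Lclat1 was selected on its Meis1 peak, the strongest of the whole Meis1 list, and the other members were chosen as the enzymes that complete the synthesis of the same lipid. The members' peaks are those whose gene symbol in the authors' annotation is a member, which gave 9 of 30534 Meis1 peaks and 14 of 22284 Hoxb13 peaks. The 4 members were read against 21883 protein-coding genes of the RefSeq table.

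The assay was chromatin immunoprecipitation followed by sequencing, in which DNA bound by a protein is recovered with an antibody and counted along the genome. The 12 libraries formed 4 groups of 3, a Meis1 precipitate with its input chromatin and a Hoxb13 precipitate with its input chromatin. The labels give no genetic change and no treatment to any group, so every library is from untreated CD-1 ventricle, and CD-1 is an outbred stock. Per the labels' protocols, the chromatin of each heart was divided between both antibodies after a small part had been kept as input, but the titles number the Meis1 libraries 1 to 3 and the Hoxb13 libraries 4 to 6. Whether both factors were measured in the same 3 hearts is therefore uncertain. Whole ventricle holds cardiomyocytes and several other cell types, so a peak is not tied to any 1 of them. A peak list measures no RNA, so the labelled tissue was not checked against marker genes and the members' expression was not analysed here.

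Cardiolipin is the characteristic phospholipid of the inner mitochondrial membrane, where it holds respiratory chain complexes and carriers in place, and the heart is rich in it. It is built from phosphatidic acid by way of CDP-diacylglycerol. Pgs1 joins CDP-diacylglycerol to glycerol 3-phosphate, Ptpmt1 removes the phosphate to give phosphatidylglycerol, and Crls1 joins phosphatidylglycerol to another CDP-diacylglycerol. The acyl chains are then exchanged, by tafazzin in the mitochondrion and by acyltransferases such as Lclat1, a lysocardiolipin acyltransferase of the endoplasmic reticulum and its contacts with mitochondria. Hoxb13 belongs to the posterior group of Hox proteins, and Meis1, a TALE homeobox protein, is known as a DNA-binding partner of Hox and Pbx proteins.

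Each factor has 1 deposited list over its 3 libraries, with no value per library. Spread between hearts and sequencing depth were therefore unknown, no test was run, and every value here is a description. Peak strength is the authors' deposited signal value, which has no named unit, and it was compared only within a list. The median strength was 18.7 in the Meis1 list (range 15.6 to 552) and 21.4 in the Hoxb13 list (range 17.8 to 697). The authors' promoter class, peaks within 1 kb of a start site, took in 6.73% of Meis1 peaks and 40.3% of Hoxb13 peaks.

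The 4 genes differed in which factor sat on them and where. Lclat1 held 7 Meis1 and 11 Hoxb13 peaks, Ptpmt1 held 1 and 2, Pgs1 held 1 Meis1 peak and no Hoxb13 peak, and Crls1 held 1 Hoxb13 peak and no Meis1 peak. Meis1 peaks were thus assigned to 3 of the 4 members, against 38.2% of all protein-coding genes, and Hoxb13 peaks to 3 of 4, against 44.4%. With 4 genes picked with these peaks known, such shares say nothing about the pathway. Lclat1 and Ptpmt1 held peaks of both factors, as did 23.9% of all genes. In the promoter class, Meis1 was found at Pgs1 alone among the members (8.16% of all genes had such a peak), and Hoxb13 at Lclat1, Ptpmt1 and Crls1 (30.7% of all genes). No member had a promoter peak of both factors.

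**Figure D1:**
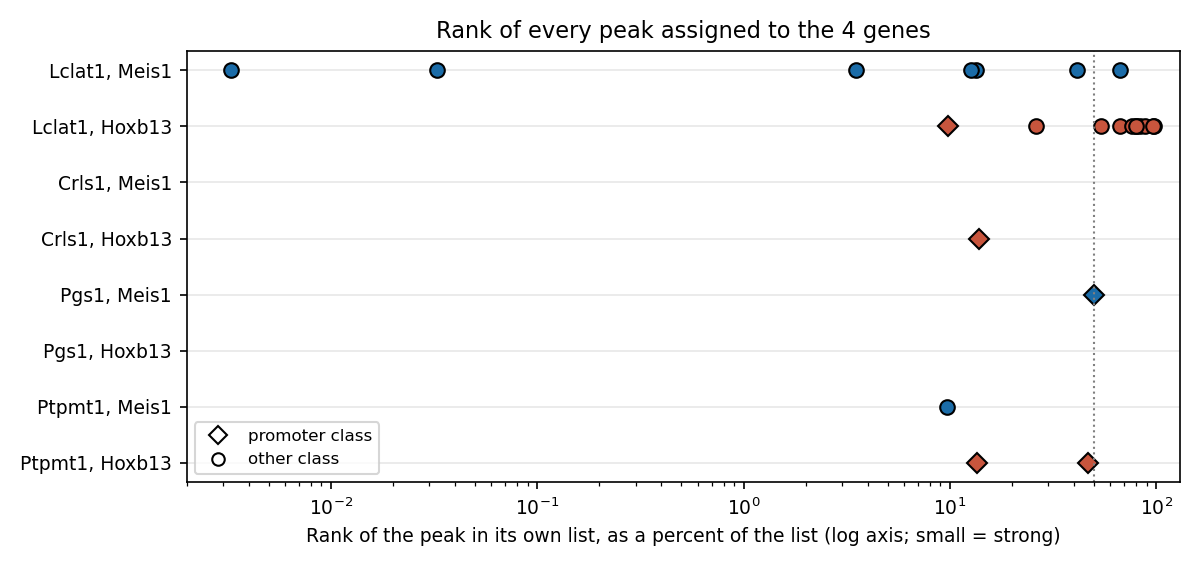
Rank of every peak assigned to the 4 genes, as a percent of its own list on a log axis, where a small value is a strong peak. Meis1 is blue and Hoxb13 red, diamonds are promoter-class peaks and circles other classes, and the dotted line marks 50%. Meis1 peaks of Lclat1 reach the far left, while 9 of its 11 Hoxb13 peaks lie right of the line.

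Lclat1 (gene ID 225010) lies on the plus strand of chromosome 17, chr17:73107985-73243368 (mm10), with Lbh upstream across a gap of 166 kb and the calpain gene Capn13 downstream across 63.1 kb. Its strongest Meis1 peak, at chr17:73022535-73022985, had strength 552 and rank 1, and lay 85.0 kb upstream of the start site in sequence annotated as intergenic. The next peaks of the Meis1 list had strengths of 540 (assigned to Myl2, the ventricular myosin light chain gene, 6.14 kb away) and 446 (assigned to En1, a homeobox gene, 156 kb away). At 451 bp the Lclat1 peak was also the widest of the list, in which 95% of peaks were exactly 284 bp wide. In the RefSeq table the peak falls inside a long noncoding RNA gene, Gm30420 (chr17:73020320-73024149). The nearest Hoxb13 peak was 12683 bp away, had strength 18.8 and was assigned to Lbh.

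The second strong Meis1 site of Lclat1 lay inside the gene, 118 kb past the start site in intron 5 of 5, the last intron, at chr17:73226014-73226263. Its strength was 392 and its rank 10, so Lclat1 was assigned the peaks of rank 1, on which it was selected, and rank 10. No other protein-coding gene was assigned 2 of the 10 strongest. With 1 of these 2 fixed by the selection, that says nothing about how unusual Lclat1 is. A weaker peak of strength 36.9 (rank 3869) ended 3589 bp before the rank 10 peak in the same intron, at chr17:73222141-73222424. The other 4 peaks were upstream. A pair at 35.5 and 35.3 kb before the start site, at chr17:73072303-73072477 with strength 86.8 and chr17:73072450-73072733 with strength 35.6, overlapped each other by 28 bp and lay in the noncoding RNA gene Gm41616. The remaining ones, 53.5 and 41.3 kb upstream, had strengths of 19.8 and 17.2, near the median of the list.

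Set against the list, 6 of the 7 Meis1 peaks of Lclat1 belonged to its stronger 50%, and their median strength was 36.9. None of the 7 was in the promoter class. A count of 7 or more Meis1 peaks was found at 741 genes (3.39%), and 2 peaks within the strongest 1% of the list at 9 genes (0.0411%). Because Lclat1 was selected on the rank 1 peak, 1 of its 2 was fixed by that choice and the share says nothing about how unusual the gene is. The other 8 genes were Ankrd1, Cacnb2, Cerk, Dip2c, Fhl2, Lrrfip2, Ppp1r14c and Stk39.

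Hoxb13 had more peaks at Lclat1 than Meis1 had, but weaker ones within its own list. Since the gene was selected on a Meis1 peak, this contrast is tilted by that choice. The strongest Hoxb13 peak was at the promoter, chr17:73107568-73107963. It ended 22 bp before the start site and had strength 36.6 and rank 2171 (9.74% of the list). A cluster of 5 lay 34.7 to 40.3 kb upstream, with strengths of 19.7, 18.9, 19.0, 26.6 and 21.0 from the farthest to the nearest. Another 4 lay in intron 5, with strengths of 17.9, 18.6, 18.3 and 18.0, and 1 of strength 18.9 lay just past the 3′ end of the gene. Their median was 18.9, and 2 of the 11 belonged to the stronger 50% of the list. A count of 11 or more Hoxb13 peaks was found at 84 genes (0.384%).

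The RefSeq window around the Lclat1 start site is shown because it holds the strongest Hoxb13 site of the gene. It runs from 250 bases before the start site to 50 after it, chr17:73107735-73108034 on the plus strand (GRCm38.p6), and has 63.0% G and C. Capitals mark the 229 bases that lie within the Hoxb13 peak.
Lclat1 start-site window: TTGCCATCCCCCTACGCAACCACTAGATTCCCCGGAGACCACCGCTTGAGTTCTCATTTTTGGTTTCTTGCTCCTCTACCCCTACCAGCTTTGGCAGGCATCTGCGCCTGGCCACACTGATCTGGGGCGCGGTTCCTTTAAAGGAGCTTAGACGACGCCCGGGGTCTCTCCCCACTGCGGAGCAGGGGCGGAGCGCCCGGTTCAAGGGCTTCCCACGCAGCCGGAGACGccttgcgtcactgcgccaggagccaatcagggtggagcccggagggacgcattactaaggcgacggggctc
Neither the Meis core letters TGACAG, nor TGATTNAT (a Pbx and Hox pair), nor the Hoxb13 sequences CCAATAAA and CTCGTAAA, were found in it on either strand. The Hoxb13 peak is 396 bp wide, and its part outside the window was not searched.

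**Figure D2:**
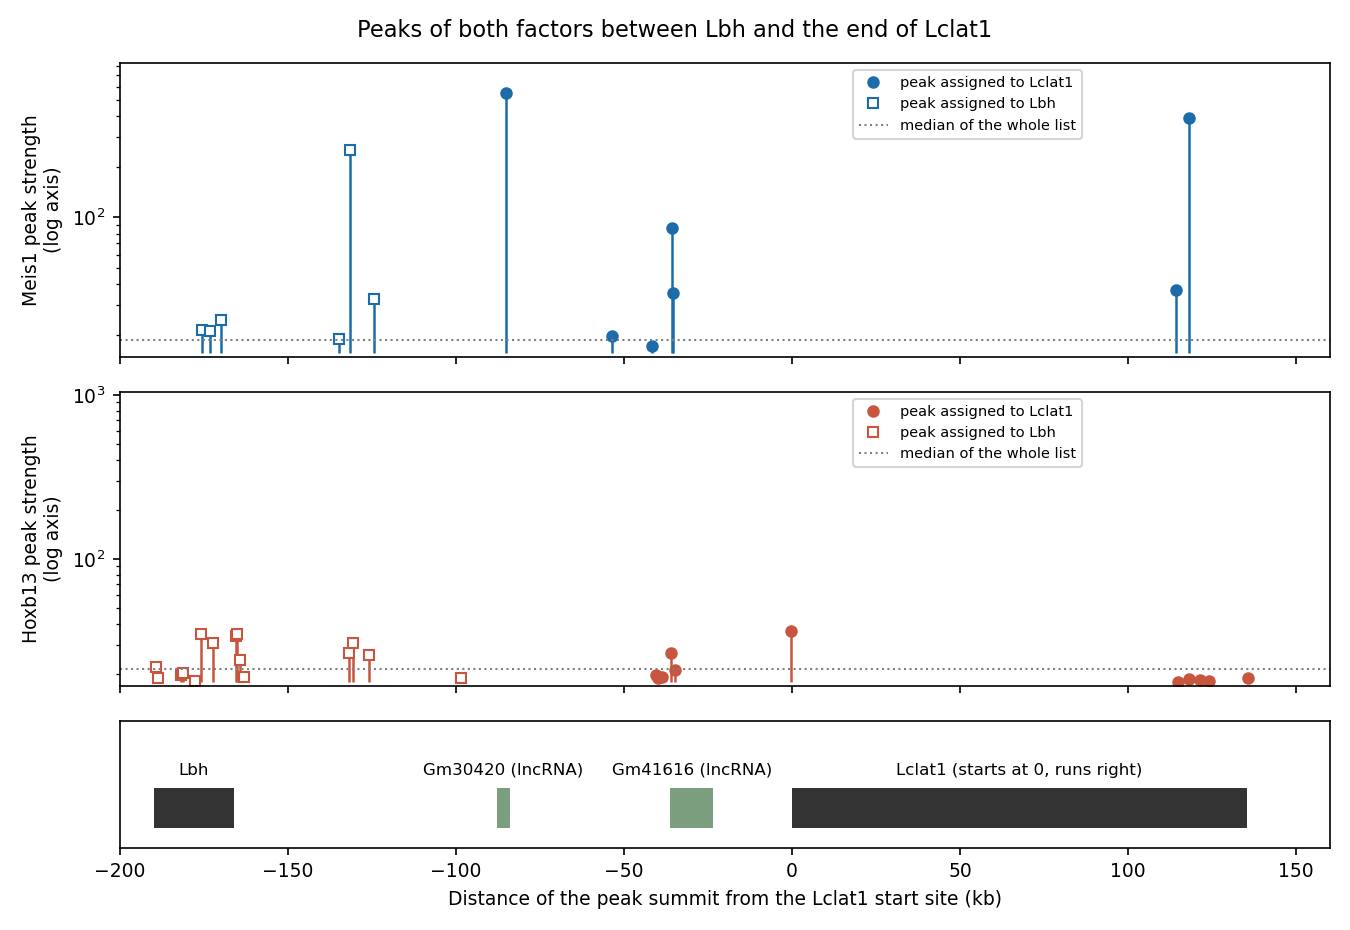
Peaks of Meis1 (top, blue) and Hoxb13 (middle, red) from Lbh to the end of Lclat1, by distance from the Lclat1 start site in kb and strength on a log axis, with gene bodies below. Filled circles are peaks assigned to Lclat1, open squares peaks assigned to Lbh, and dotted lines the list medians. The Meis1 peaks of strength 552 and 392 stand on either side of the start site, and the Hoxb13 peak at the start site (36.6) is the highest of the 11 assigned to Lclat1.

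The 2 factors met at 2 places in Lclat1. In the upstream cluster the Meis1 peak of strength 86.8 shared 58 bp with the Hoxb13 peak of strength 26.6, which was 33.1% of the Meis1 peak and 14.6% of the Hoxb13 peak, and their summits were 229 bp apart. In intron 5 the Meis1 peak of strength 392 lay wholly within the Hoxb13 peak of strength 18.6, which was 63.1% covered, with summits 45 bp apart. The intron site therefore ranked 10 for Meis1 and 18523 for Hoxb13. An overlapping pair assigned to 1 gene was found at 1289 genes (5.89%), and overlap took in 5.54% of the Meis1 list and 7.93% of the Hoxb13 list. Among the strongest 1% of Meis1 peaks, 39 of 305 (12.8%) overlapped a Hoxb13 peak, and the first of them, upstream of Lclat1, did not.

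Nearest-gene assignment does not say which gene a distal peak acts on. The interval of 166 kb between Lbh and Lclat1 held 8 Meis1 peaks, the rank 1 peak that selected Lclat1 among them, of which 5 were assigned to Lclat1 and 3 to Lbh, a transcription cofactor gene named for limb bud and heart. That is 4.82 Meis1 peaks per 100 kb, against 1.32 on chromosome 17 as a whole. For Hoxb13 the interval held 13 peaks more than 1 kb before the Lclat1 start site, or 7.83 per 100 kb against 1.17. Of these, 5 were assigned to Lclat1 and 8 to Lbh. The Lclat1 promoter peak of strength 36.6 also lies in the interval and was left out of this count. Lbh itself held 7 Meis1 peaks, the strongest of 253 (rank 107), and 15 Hoxb13 peaks. Lbh's strongest Meis1 peak lay 46.4 kb from the rank 1 peak, which is 80.6 kb from the end of Lbh and 85.0 kb from the start of Lclat1. Capn13 on the other side held 4 Meis1 peaks, up to 38.5, and 2 Hoxb13 peaks.

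The locus of Lclat1, its body plus each flanking gap up to the midpoint, was 250 kb, against a median of 46.8 kb over all genes. With the genes ranked by locus size and divided into 10 equal bins, Lclat1 fell in a bin of 2188 genes, of which 62.6% had a Meis1 peak and 55.7% a Hoxb13 peak. In that bin 3.66% of genes had 7 or more Meis1 peaks and 1.05% had 11 or more Hoxb13 peaks, and the median gene had 1 of each. By peak numbers and strongest ranks in both lists, the 5 genes most like Lclat1 among 21882 were Tead1 (distance 0.132), Cep85l (0.151), S1pr1 (0.156), Kazn (0.176) and Asb2 (0.178). Tead1, a transcription factor of the Hippo pathway, held 7 Meis1 peaks, the strongest of 144, and 10 Hoxb13 peaks.

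Pgs1 (gene ID 74451), the enzyme of the committed step, lies on chromosome 11 at chr11:117986297-118024011 on the plus strand. It was the member with a Meis1 peak over its start site, at chr11:117986648-117986931, with strength 18.7 and rank 15215 (49.8%), a peak of median strength. No Hoxb13 peak was assigned to it, and the nearest was 22844 bp away. The authors' list places 2 more Meis1 peaks in Pgs1 introns but assigns them to Mir6933, a microRNA gene inside Pgs1. One of these, in intron 2 of 9 and 12.9 kb past the start site at chr11:117999740-117999813, had strength 64.1 and rank 1718 (5.63%). The other, in intron 6 of 9 and 17.5 kb past it at chr11:118004246-118004529, had strength 21.2 (rank 10461). Both intron peaks were stronger than the start-site peak, so the count of Meis1 peaks within the Pgs1 body is 3 where the assigned count is 1.

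The Pgs1 window is shown because it combines a Meis1 peak with repeated Meis core letters, at chr11:117986607-117986906 on the plus strand (GRCm38.p6), with the 4 matches to TGACAG or its reverse complement in capitals.
Pgs1 start-site window: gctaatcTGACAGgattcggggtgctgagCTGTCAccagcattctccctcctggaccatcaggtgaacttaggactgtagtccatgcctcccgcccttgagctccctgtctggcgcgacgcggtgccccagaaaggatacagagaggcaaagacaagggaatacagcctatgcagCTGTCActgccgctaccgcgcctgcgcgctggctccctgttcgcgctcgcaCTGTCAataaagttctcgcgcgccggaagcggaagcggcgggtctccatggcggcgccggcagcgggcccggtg
The matches begin 243, 221, 75 and 24 bases before the start site of this window, 117986857, which is also the one the authors used. The RefSeq gene body begins further upstream, at 117986297, so all 4 matches lie within it. The Meis1 peak covers 259 of the 300 bases, holds the matches at 75 and 24, and has its summit 6 bp from the one and 45 bp from the other. The matches at 243 and 221 lie just before the peak. The window held no TGATTNAT, CCAATAAA or CTCGTAAA.

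Over 32851 RefSeq windows of this length, TGACAG was found on either strand in 6300 (19.2%), 3 or more matches in 67 (0.204%) and 4 or more in 14 (0.0426%). Among 1369 windows overlapping a Meis1 peak the share with a match was 43.5%, and among 5847 overlapping a Hoxb13 peak it was 15.7%. A Meis1 peak was found in 3 of 11 windows with 4 matches, 12 of 53 with 3, 91 of 697 with 2, 490 of 5536 with 1 and 773 of 26551 with none, and the 3 windows with more than 4 matches had none. The 3 windows with 4 matches and a Meis1 peak were those of Pgs1, Atp6v0a1 (a proton pump subunit) and Apobec2 (a muscle-expressed member of the cytidine deaminase family). The other motifs were rarer, with TGATTNAT in 3.22%, CCAATAAA in 1.12% and CTCGTAAA in 0.131% of windows. Windows of the same gene can overlap, and a match is not a binding site.

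**Figure D3:**
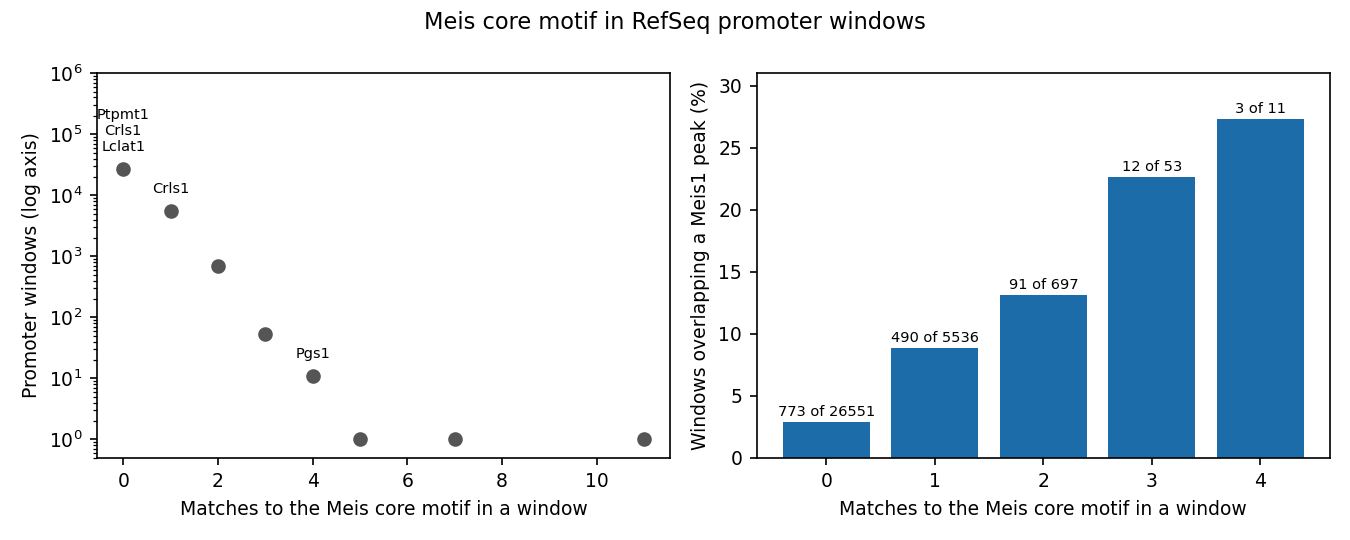
Left, number of RefSeq promoter windows (log axis) by matches to TGACAG, with the windows of the members named. Right, percent of windows overlapping a Meis1 peak by number of matches, with counts above the bars. Pgs1 is among the 11 windows with 4 matches, and the share with a Meis1 peak is 2.91% at 0 matches and 27.3% at 4.

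Crls1 (gene ID 66586), the cardiolipin synthase, lies on chromosome 2 at chr2:132846650-132866786 on the plus strand. Its only peak was a Hoxb13 peak over the start site, at chr2:132846503-132846898, with strength 32.7 and rank 3092 (13.9%). No Meis1 peak was assigned to it, and the nearest lay 83497 bp from that Hoxb13 peak. Its neighbours Mcm8, a helicase gene, and Lrrn4 had no peak of either factor. The locus of 21.4 kb is small, and in its bin of 2189 genes by locus size 22.4% had a Meis1 peak and 33.8% a Hoxb13 peak.

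The Crls1 window is shown to set beside that of Pgs1, at chr2:132846416-132846715 on the plus strand (GRCm38.p6). Capitals mark the 213 bases inside the Hoxb13 peak.
Crls1 start-site window: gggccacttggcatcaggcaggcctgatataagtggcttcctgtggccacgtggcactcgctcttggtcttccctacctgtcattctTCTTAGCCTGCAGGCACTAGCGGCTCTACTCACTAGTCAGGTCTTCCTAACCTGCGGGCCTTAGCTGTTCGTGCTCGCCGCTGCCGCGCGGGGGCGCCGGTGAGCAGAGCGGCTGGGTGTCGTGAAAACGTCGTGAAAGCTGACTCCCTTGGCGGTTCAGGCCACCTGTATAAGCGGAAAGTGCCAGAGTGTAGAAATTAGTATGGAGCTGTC
The window held 1 match to TGACAG, on the minus strand 173 bases before the start site and outside the Hoxb13 peak, and none to the other 3 motifs. The rest of that 396 bp peak lies past the window and was not searched. RefSeq gives a second Crls1 start, and that window held no match and no peak.

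Ptpmt1 (gene ID 66461), the phosphatidylglycerophosphate phosphatase, is a compact gene of 7.34 kb on the minus strand of chromosome 2, chr2:90910713-90918050. The peaks of the factors were separate. The Meis1 peak, at chr2:90913787-90914070, lay 3.53 kb past the start site over exon 3 of 4, with strength 44.8 and rank 2961 (9.70%). The Hoxb13 peaks, at chr2:90917342-90917737 with strength 32.9 (rank 3040) and chr2:90917541-90917936 with strength 21.9 (rank 10439), were both in the promoter class, overlapped each other by 197 bp and began 3271 bp from the Meis1 peak. The neighbour Kbtbd4 had no Meis1 peak and 1 Hoxb13 peak of strength 21.1, and Celf1, an RNA-binding protein gene, had no Meis1 peak and a Hoxb13 promoter peak of 18.2.

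RefSeq places the Ptpmt1 start upstream of the one the authors used (90917596 on chromosome 2), and its window, 64 bp from the nearer Hoxb13 peak, held no match to any of the 4 motifs. The 5 genes with a peak pattern most like Ptpmt1 were Unk (distance 0.0127), Icos (0.0205), Setd4 (0.0226), Slc29a2 (0.0241) and Phf13 (0.0285), each with 1 Meis1 and 2 Hoxb13 peaks.

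**Figure D4:**
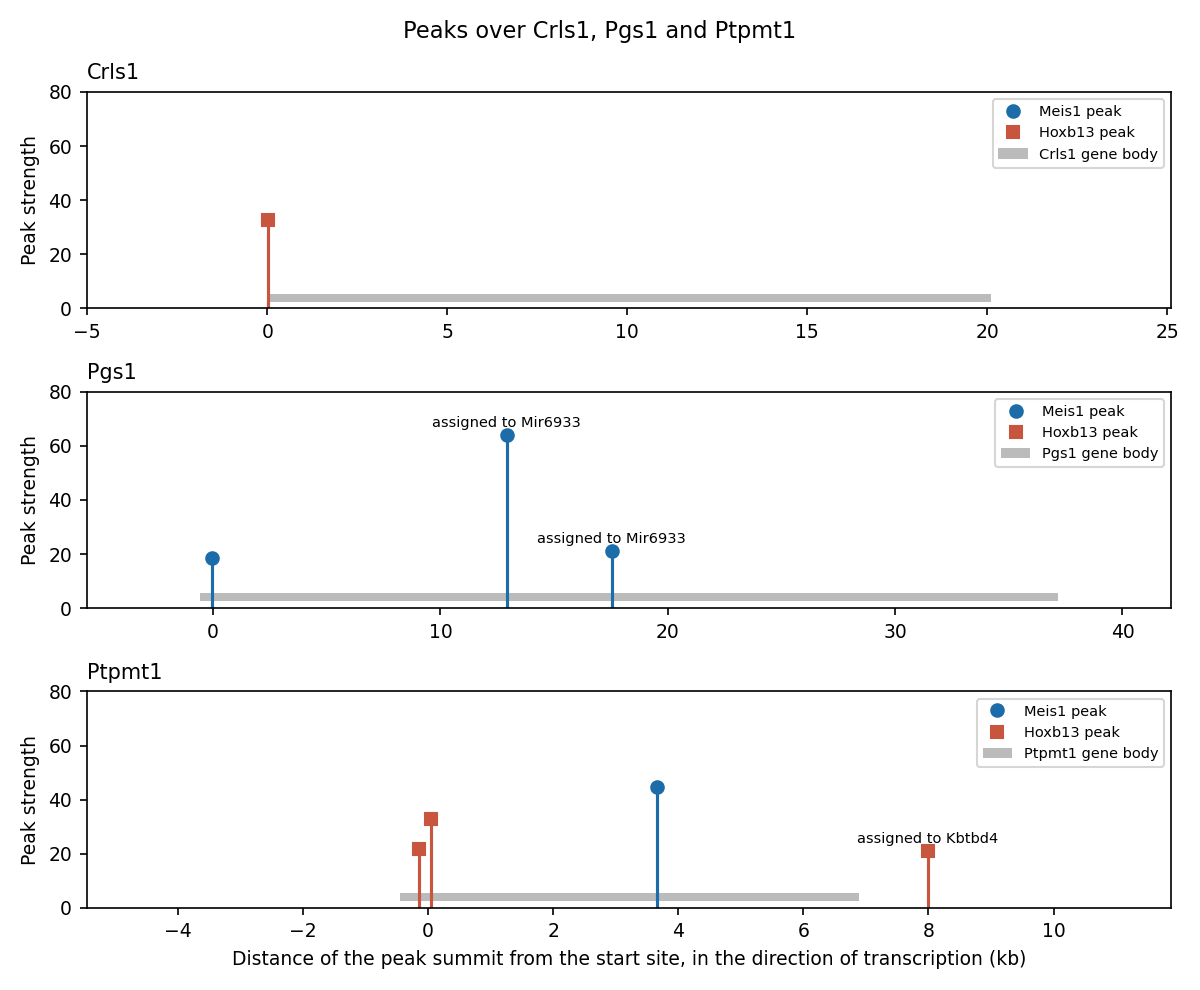
Peak strength by distance from the authors' start site, in kb and in the direction of transcription, for Crls1, Pgs1 and Ptpmt1, with Meis1 as blue circles, Hoxb13 as red squares and the gene body in grey. The Pgs1 intron peaks of strength 64.1 and 21.2 were assigned to Mir6933, and the Ptpmt1 panel separates a Meis1 peak at 44.8 from Hoxb13 peaks at 32.9 and 21.9.

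The surrounding pathway was read from a list of 40 further genes of phosphatidic acid supply, lipid import, remodelling and other acyltransferases. Hoxb13 peaks were assigned to 30 of the 40 (75.0%, against 44.4% of all protein-coding genes) and promoter-class Hoxb13 peaks to 24 (60.0%, against 30.7%). Meis1 peaks were assigned to 15 (37.5%, against 38.2%) and promoter-class ones to 3 (7.5%, against 8.16%). The median gene of the list had 0 Meis1 peaks and 1 Hoxb13 peak, against 0 of each over all protein-coding genes. Both factors were at 13 of the 40 genes, against 23.9% of all protein-coding genes. Hoxb13 alone was at 17, Meis1 alone at 2 (Agk and Agpat4) and neither at 8. Over all 21883 protein-coding genes, 8359 had a Meis1 peak, 9709 a Hoxb13 peak and 5220 both. The shares of all genes with 1 factor alone or with neither were not computed from these. Since the list was drawn up with earlier results of these data known, the higher Hoxb13 share is a description of these 40 genes.

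Upstream of the members, Hoxb13 promoter peaks were found at Tamm41 (strength 18.4), the mitochondrial CDP-diacylglycerol synthase, at Cds2 (23.0), the synthase of the endoplasmic reticulum, and at Gpam (35.8), the mitochondrial glycerol phosphate acyltransferase. Cds1, the other synthase of the endoplasmic reticulum, had no peak of either factor. Gpam was also assigned 6 Meis1 peaks, none in the promoter class. The strongest, of 54.0, lay 9.89 kb from the start site, and the other 5, with strengths of 15.8 to 21.1, lay 305 to 496 kb from it. Of the 10 import and scaffold genes, 4 (40%, against 30.7% of all genes) had a Hoxb13 promoter peak, namely Prelid3b (28.2), Stoml2 (21.1), Phb (26.3) and Dnajc19 (24.4). Another 4, Prelid1, Triap1, Phb2 and Nme4, had no peak of either factor, a count with no computed share of all genes beside it. Phb and Phb2 encode the subunits of the prohibitin complex, which with Stoml2 organises cardiolipin-rich membrane, and Dnajc19 is a prohibitin partner whose loss causes cardiomyopathy in humans. Dnajc19 was assigned 3 Meis1 peaks, 23.7 to 229 kb from its start site, the strongest of 17.6.

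All 6 remodelling and turnover genes held a Hoxb13 peak (against 44.4% of all genes), 5 of them at the promoter (against 30.7%), and 2 held a Meis1 peak (33.3%, against 38.2%). With 6 genes, in 1 of 5 subgroups of a list drawn up with results known, these are counts only. The promoter peaks were at Taz (20.7), the tafazzin gene mutated in Barth syndrome, Hadhb (55.3), a subunit of the trifunctional protein, the phospholipases Pla2g6 (41.1) and Pnpla8 (30.8), and the mitochondrial phospholipase D gene Pld6 (24.9). The Hadhb peak was within the strongest 2.76% of Hoxb13 peaks and also lay over Hadha, the gene of the other subunit. Meis1 peaks were found at Taz (27.7, 4.36 kb past the start site) and Hadhb (17.6). In the phosphatidylethanolamine branch of 3 genes, Ptdss1, a phosphatidylserine synthase, had a Hoxb13 promoter peak of 31 that also lay over the gene Mterf3. The other synthase, Ptdss2, had no peak of either factor, and the decarboxylase gene Pisd had peaks of both factors outside the promoter class.

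The list also held 16 other acyltransferases, not all of the protein family of Lclat1. Of these, 7 held Meis1 peaks (43.8%, against 38.2% of all genes) and 13 Hoxb13 peaks (81.2%, against 44.4%). Meis1 peaks were at the promoter of 3 (18.8%, against 8.16%) and Hoxb13 peaks at the promoter of 11 (68.8%, against 30.7%). Agpat1 and Gpat2 had no peak of either factor. Gpat3, a glycerol phosphate acyltransferase, held as many Meis1 peaks as Lclat1, 7, with the strongest of 310 (0.151% of the list) 7.99 kb upstream, a promoter peak of 49.9 and a Hoxb13 promoter peak of 20.0. The Gpat3 upstream peak lay inside the body of the neighbouring gene Abraxas1 and overlapped a Hoxb13 peak of 22.1, with summits 319 bp apart. Lpgat1 had overlapping promoter peaks of both factors, 18.7 for Meis1 and 36.3 for Hoxb13, with summits 209 bp apart. Agpat2 had an overlapping distal pair, 30.7 for Meis1 and 22.7 for Hoxb13, and a Hoxb13 promoter peak of 29.7. Agpat3 had promoter peaks of both factors, 19.4 for Meis1 and 23.3 for Hoxb13. Agpat5 had a Meis1 peak of 54.4 outside the promoter class and a Hoxb13 promoter peak of 46.9.

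The remaining genes of this group with a promoter peak had one of Hoxb13 only, at Gpat4 (20.9), Lpcat1 (22.9), Lpcat3 (18.1), Lpcat4 (27.8), Mboat2 (18.3) and Mboat7 (30.9). Lpcat1, a lysophosphatidylcholine acyltransferase, also held a Meis1 peak of 28.6 away from the promoter.

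**Figure D5:**
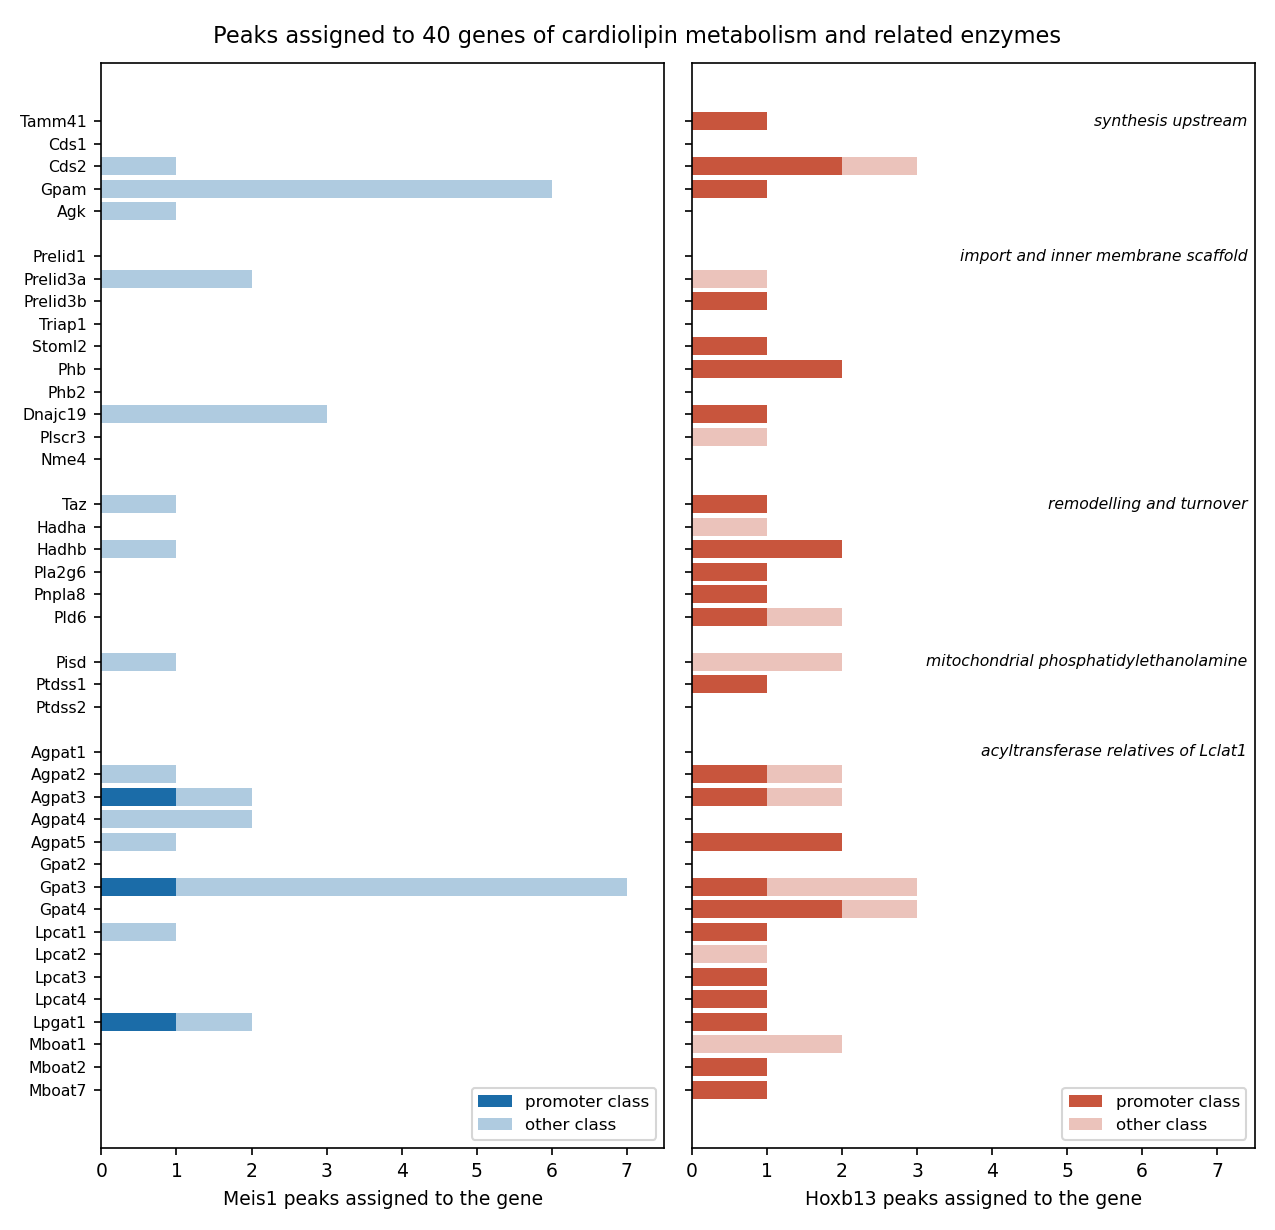
Number of Meis1 peaks (left, blue) and Hoxb13 peaks (right, red) assigned to each of 40 genes, grouped by role, with promoter-class peaks dark and other classes pale. Dark Hoxb13 bars appear at 24 genes and dark Meis1 bars at 3, and the longest bar is the 7 Meis1 peaks of Gpat3. The group labelled as relatives of Lclat1 holds acyltransferases that are not all of its protein family.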

How the data were processed

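The deposited files are 2 annotated peak lists, 1 per factor, each covering 3 libraries. The submitters' processing notes name Bowtie2 2.2.3, ChIPseeker, Picard, deepTools 1.6 and the mm10 build. Not given in the sources used here are the peak caller, its threshold, the use of the inputs and how the libraries of a factor were combined. Each line holds the authors' signal value (peak strength), a score that was not used, a summit offset, a class, a distance and the nearest gene; the value columns are unnamed per the file headers and were read by their narrowPeak positions. Depth per library is unknown.

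From these, each gene's peaks were counted by the authors' symbol, peaks were ranked within their list, and overlap meant at least 1 shared base (Python 3.11.15, pandas 2.3.3). Hoxb13 peaks are wider (396 bp in 98.8% of the list) than Meis1 peaks (284 bp in 95%) and so overlap a given base more easily. Of the gene IDs, 9827 of 9840 in the Meis1 list and 10966 of 10981 in the Hoxb13 list matched the RefSeq table (GRCm38.p6, the assembly of mm10). Promoter sequences are RefSeq windows of that build and were found for all 4 members. Counting was checked on simulated peaks. The members, the list of 40 genes, the motifs and the neighbouring genes were chosen with earlier results of these data known. Genes of the list are named where they had a promoter-class peak, an overlapping pair or a peak in the strongest 1% of a list. Named outside this rule were those with Meis1 peaks alone or no peak of either factor, and Hadha, Pisd and Prelid3a. The 5 genes most like a member had the smallest distance over 4 values. These values were the log2 of 1 plus the number of peaks and the rank of the strongest peak in each list. Naming Myl2, En1 and the genes with 2 peaks in the strongest 1% of the Meis1 list was decided after their values were seen.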

Additional observations from a re-analysis of the deposited data

How the results depend on the processing

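The 7 counts described were recomputed under other settings. Meis1 peaks at the members numbered 9, and 4 within the strongest 10% of the list; 14 Hoxb13 peaks became 5 within the stronger 50%, 1 within the strongest 10%, 9 within 100 kb of the start site, and 7 when any peak over a gene body was counted whatever its assigned gene, a setting chosen after seeing the data. Within the strongest 10%, 4 of the 40 list genes had a Meis1 peak and 5 a Hoxb13 peak, where 15 and 30 had one in the whole lists. The share of all protein-coding genes at that setting was not computed, so these counts have no background here. The 2 overlapping pairs became 1 with 50% reciprocal overlap, 1 with summits at most 100 bp apart, 1 within the stronger 50% of both lists, and 7 with peaks at most 1 kb apart. Fewer peaks or a wider reach enter under these settings by construction. The other 19 recomputed values were within 1.5 times the count given, among them the members with a promoter peak, 1 for Meis1 and 3 for Hoxb13 at each setting run. Also among them, any peak over the gene body widened by 10 kb was counted for the list of 40 genes. Meis1 peaks were then at 20 of the 40 genes, against 39.1% of all protein-coding genes, and Hoxb13 peaks at 34 of 40, against 52.8%. The Meis1 share was thus above that of all genes here, but not by assigned peaks (37.5%, against 38.2%). Within the stronger 50% of the lists, 12 of the 40 had a Meis1 peak, against 28% of all protein-coding genes, and 20 a Hoxb13 peak, against 29.7%. No paired analysis was possible because each factor has 1 list over its 3 libraries and no result comes from a test. For the same reason leaving out a library could not be run, and depth cannot be weighed.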

Other observations

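Among the genes of the pathway list outside the naming rule, Prelid3a, a lipid transfer protein, had a Meis1 peak of strength 121, and Pisd, the phosphatidylserine decarboxylase of mitochondria, a Hoxb13 peak of strength 52.6, both outside the promoter class; they were chosen after their values were seen.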
